A study of Mus musculus with 2 samples.

Results

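The 10 genes described here encode members of the BCL2 family, the proteins that decide whether mitochondria release cytochrome c and start apoptosis, and several of them are the targets of senolytic drugs. They form a set of 5 survival genes (Bcl2, Bcl2l1, Mcl1, Bcl2l2 and Bcl2a1b) and 5 death genes (Bax, Bak1, Bcl2l11, Bid and Bad), chosen by name, and all 10 were among the 15247 genes of the table. Their levels were read in 1426 heart cells of old C57BL/6 mice (20 to 22 months). The cells were sorted for mCherry in the p16-FDR strain, which carries a FLP recombinase and a diphtheria toxin receptor fused to mCherry under p16 control. Single-cell libraries were made with the droplet 3' v3 chemistry, which tags each captured RNA with a unique molecular identifier (UMI). The study has 2 samples in 1 group, both mCherry-positive, and no negative or young cells were analysed here, so each comparison below is between cells of the same sort.

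The survival proteins hold the pore-forming proteins BAX and BAK in check at the mitochondrial outer membrane. The BH3-only proteins, here BIM (gene Bcl2l11), BID and BAD, bind the survival proteins or activate the pore formers when a cell is stressed. Senescent cells are known for relying on survival members of the family, and navitoclax, a senolytic drug, binds BCL2, BCL-XL (gene Bcl2l1) and BCL-W (gene Bcl2l2) but not MCL1 or A1 (gene Bcl2a1b). The p53 target p21, encoded by Cdkn1a, and p16, encoded by Cdkn2a, are the usual markers of senescence.

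Cells were sorted into classes by markers of 6 cell types, with at least 3 markers at 2 or more UMIs and no more than 1 marker of any other type. Each cell name starts with 1 of 2 prefixes, and these are taken as the libraries Heart1 and Heart2, although the labels do not tie a prefix to a sample or say whether they hold separate animals. Fibroblast-gated cells numbered 193 of 266 in Heart1 (72.6%, 95% interval 66.8 to 77.8%) and 924 of 1160 in Heart2 (79.7%, 77.2 to 81.9%). Macrophage-gated cells numbered 37 (13.9%, 9.99 to 18.7%) and 208 (17.9%, 15.8 to 20.3%). Median depth was 11841 and 8748 UMIs per fibroblast-gated cell and 8133 and 9568.5 UMIs per macrophage-gated cell, in Heart1 and Heart2. The sums of the gate markers follow from the gating itself, so they describe the classes and are no independent check of the labels. The 8 fibroblast markers summed to 28174 and 29633 CPM (UMIs scaled to 1000000 per sum) in fibroblast-gated cells, against 37.5 and 84.3 CPM in macrophage-gated cells. The 8 macrophage markers summed to 10.2 and 18.4 CPM in fibroblast-gated cells, against 47449 and 50011 CPM in macrophage-gated cells. All intervals here are exact 95% intervals for counting error alone, while the limit that a count of 0 allows is taken as 3 counts. The libraries shared 0 cell barcodes, and they stood apart in 8 genes of the tissue dissociation response, such as Fos and Hspa1a. These summed to 6005 CPM in Heart1 and 1441 CPM in Heart2 among fibroblast-gated cells, and to 6111 and 967 CPM among macrophage-gated cells.

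The largest class difference was in Bcl2a1b, one of the near-identical mouse copies of the A1 gene, which is known from blood cells as a survival gene. To show how alike the copies are, the stretch around the transcription start of Bcl2a1b and of its copies Bcl2a1a and Bcl2a1d is printed, 250 bases before and 50 after the start, 5′ to 3′ on the gene's strand (RefSeq, GRCm38.p6). They lie at chr9:89199023-89199322 (plus strand) for Bcl2a1b, chr9:88956670-88956969 (plus strand) for Bcl2a1a and chr9:88731801-88732100 (minus strand) for Bcl2a1d. Capitals mark GAGGAA and its reverse complement, the core sequence that the myeloid factor PU.1 binds.
Bcl2a1b: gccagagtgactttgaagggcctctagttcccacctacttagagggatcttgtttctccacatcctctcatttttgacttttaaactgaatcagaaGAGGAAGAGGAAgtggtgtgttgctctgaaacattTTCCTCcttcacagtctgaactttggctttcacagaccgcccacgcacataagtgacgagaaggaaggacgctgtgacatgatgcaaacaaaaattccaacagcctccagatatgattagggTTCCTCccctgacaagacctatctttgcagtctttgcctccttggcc
Bcl2a1a: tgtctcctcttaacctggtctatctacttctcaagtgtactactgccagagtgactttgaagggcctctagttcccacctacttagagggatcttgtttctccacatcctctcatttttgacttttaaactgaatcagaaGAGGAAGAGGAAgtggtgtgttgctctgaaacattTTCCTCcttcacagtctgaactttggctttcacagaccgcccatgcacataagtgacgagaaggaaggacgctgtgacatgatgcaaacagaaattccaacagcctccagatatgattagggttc
Bcl2a1d: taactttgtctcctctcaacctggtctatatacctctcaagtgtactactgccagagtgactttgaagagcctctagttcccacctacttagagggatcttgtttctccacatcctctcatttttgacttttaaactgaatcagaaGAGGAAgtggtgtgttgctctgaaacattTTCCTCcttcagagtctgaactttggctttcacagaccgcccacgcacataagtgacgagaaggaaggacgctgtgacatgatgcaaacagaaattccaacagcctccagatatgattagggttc
Both strands were searched, and matches do not overlap. Bcl2a1b held 4 matches, Bcl2a1a 3 and Bcl2a1d 2. The windows of Bcl2a1a and Bcl2a1d end inside the place of the last Bcl2a1b match, so these counts do not cover the same stretch. The first pair stands head to tail in Bcl2a1b and Bcl2a1a, whereas Bcl2a1d holds 1 of that pair. At least 1 match stood in 28.3% of 32851 promoters of this length and at least 2 matches in 4.82%. Where they align, Bcl2a1b and Bcl2a1a were identical at 254 of 256 bases (99.2%), and Bcl2a1b and Bcl2a1d at 247 of 250 (98.8%) beside 6 gapped positions. The 3' end of the Bcl2a1b transcript is also shared in part. Of 451 windows of 50 bases in its last 500 bases, 45.7% were found anywhere in the Bcl2a1a transcript and 66.7% anywhere in that of Bcl2a1d. The split of reads among the copies is therefore uncertain, and the value of Bcl2a1b may hold or lack reads of the others.

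Bcl2a1b was abundant in macrophages and close to absent from fibroblasts. It had 0 UMIs in the 193 fibroblast-gated cells of Heart1, which leaves room for a UMI in up to 1.55% of cells when 3 counts are taken as the limit of a 0, and 2 UMIs in 2 of 924 cells of Heart2 (0.243 CPM). In macrophage-gated cells it stood at 320 CPM in Heart1 (111 UMIs, 263 to 385) and 192 CPM in Heart2 (395 UMIs, 174 to 212). The classes did not overlap, and the 2 macrophage intervals did not overlap either. A UMI was found in 67.6% and 59.1% of macrophage-gated cells. In Heart1 the level was at least 272-fold lower in fibroblast-gated cells, taking 3 UMIs as the floor. In Heart2 macrophage-gated cells had 793 times the fibroblast level (218 to 6572). The other copies followed the same pattern, with 0 UMIs of either in fibroblast-gated cells of both libraries. In macrophage-gated cells Bcl2a1a stood at 49.0 and 18.5 CPM and Bcl2a1d at 23.0 and 24.4 CPM, in Heart1 and Heart2.

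Mcl1, which encodes a short-lived survival protein that navitoclax does not bind, was the most abundant survival gene in fibroblasts. It stood at 131 CPM in Heart1 (335 UMIs) and 103 CPM in Heart2 (852 UMIs) in fibroblast-gated cells, against 346 CPM (120 UMIs) and 301 CPM (618 UMIs) in macrophage-gated cells. All 4 values separated by class. A UMI was found in 72.5% and 56.4% of fibroblast-gated cells and in 91.9% and 87.5% of macrophage-gated cells. At an equal depth of 3000 UMIs per cell the expected shares were 30.5% and 25.6% against 64.3% and 54.5%.

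Bcl2l1, which encodes BCL-XL, was also lower in fibroblasts, but by a very different amount in each library. It stood at 19.6 CPM (50 UMIs) and 26.1 CPM (215 UMIs) in fibroblast-gated cells of Heart1 and Heart2. In macrophage-gated cells it stood at 86.4 CPM (30 UMIs, 58.3 to 123) and 35.6 CPM (73 UMIs, 27.9 to 44.7). Only the macrophage-gated cells of Heart1 were high, and their interval did not overlap that of Heart2.

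Bcl2, the founding member, and Bcl2l2, which encodes BCL-W, did not pass the test between the classes. Bcl2 stood at 47.4 CPM (121 UMIs, 39.4 to 56.7) and 60.8 CPM (501 UMIs, 55.6 to 66.3) in fibroblast-gated cells, and at 34.6 CPM (12 UMIs, 17.9 to 60.4) and 43.4 CPM (89 UMIs, 34.8 to 53.4) in macrophage-gated cells. Bcl2l2 stood at 12.9 and 15.8 CPM in fibroblast-gated cells, and at 11.5 and 11.2 CPM in macrophage-gated cells. Both fibroblast values were above both macrophage values for each gene, with intervals that overlapped in Heart1 for both genes and in Heart2 for Bcl2l2. The highest Bcl2 levels were in lymphocytes, where BCL2 is well known as a survival factor. The 9 T cell-gated cells of Heart1 stood at 661 CPM (36 UMIs in 6 cells) and the 5 B cell-gated cells at 517 CPM (21 UMIs in 5 cells), and the few endothelial-gated cells (3 in Heart1 and 8 in Heart2) at 74.4 and 78.9 CPM.

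Among the death genes, Bax led in both classes. It encodes the pore former BAX and stood at 143 CPM (364 UMIs) and 156 CPM (1287 UMIs) in fibroblast-gated cells of Heart1 and Heart2, against 323 CPM (112 UMIs) and 218 CPM (448 UMIs) in macrophage-gated cells. The classes did not overlap, and the gap was wider in Heart1. Bak1, which encodes the second pore former BAK, stood at 24.3 and 24.0 CPM in fibroblast-gated cells, against 49.0 and 46.8 CPM in macrophage-gated cells.

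The BH3-only genes split by class. Bcl2l11, which encodes BIM, a binder of all survival proteins, stood at 6.27 CPM (16 UMIs) and 9.46 CPM (78 UMIs) in fibroblast-gated cells, against 49.0 CPM (17 UMIs) and 34.6 CPM (71 UMIs) in macrophage-gated cells. Bid, whose protein is cleaved by caspase-8 to link death receptors to mitochondria, stood at 1.57 CPM (4 UMIs) and 3.03 CPM (25 UMIs), against 23.0 CPM (8 UMIs) and 12.2 CPM (25 UMIs). Bad, whose protein binds BCL2 and BCL-XL and is switched off by growth factor signalling, stood at 61.1 and 61.6 CPM in fibroblast-gated cells, against 37.5 and 44.8 CPM in macrophage-gated cells. Bad was thus the one death gene with both fibroblast values above both macrophage values.

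**Figure D1:**
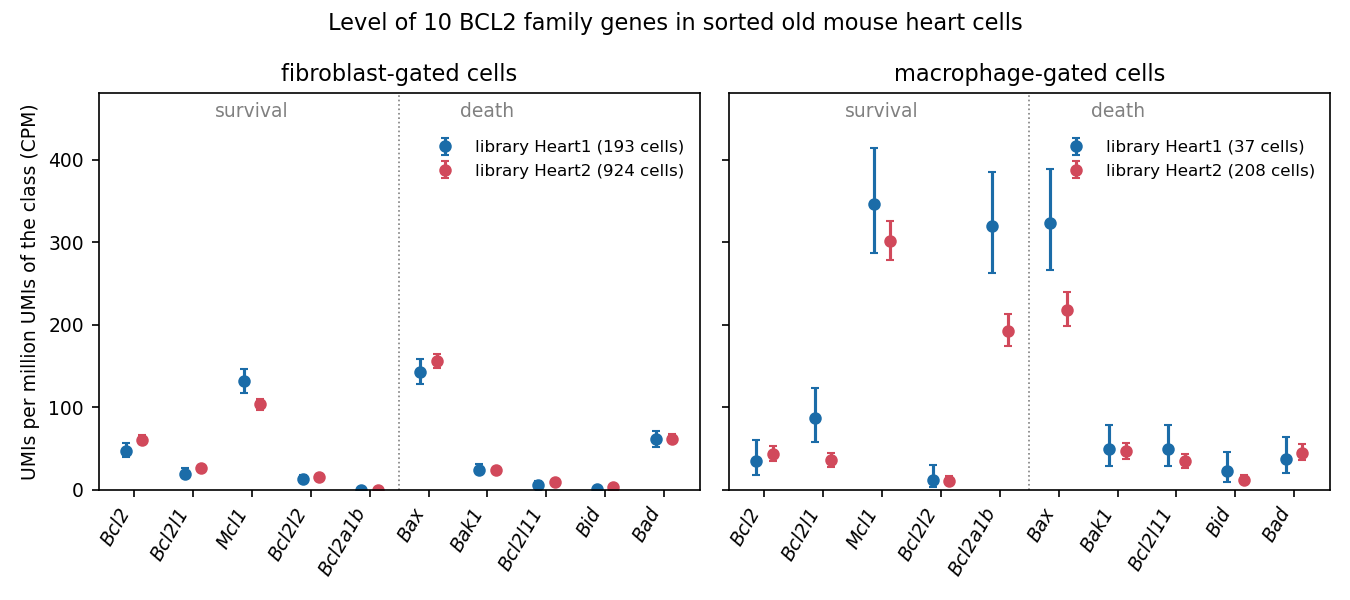
Level of each of the 10 genes in CPM (UMIs scaled to 1000000 per class and library), for fibroblast-gated cells (left) and macrophage-gated cells (right). Points are the 2 libraries and bars are exact 95% Poisson intervals for counting error. Bcl2a1b is at 0 and 0.243 CPM in fibroblast-gated cells and at 320 and 192 CPM in macrophage-gated cells, where Mcl1 and Bax are also high.

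Within a class, the order of the genes was much the same in both libraries. The chemistry gives 1 tag per captured 3' end, so levels of different genes were compared without a length correction, although capture can differ between genes. In fibroblast-gated cells Bax stood first and Mcl1 next, with intervals that overlapped in Heart1 (128 to 158 and 118 to 146 CPM) and not in Heart2 (148 to 165 and 96.5 to 111 CPM). Bad and Bcl2 followed with overlapping intervals, then Bcl2l1 and Bak1, which overlapped too, and then Bcl2l2, Bcl2l11, Bid and Bcl2a1b. In macrophage-gated cells the first 3 were Mcl1, Bax and Bcl2a1b. They overlapped in Heart1, whereas in Heart2 Mcl1 stood above Bax and Bcl2a1b. The other 7 genes were each under 90 CPM there.

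The class difference was tested with limma on log2(CPM + 5) of the UMIs summed per library and class, with the library as a block and Benjamini-Hochberg adjustment over 8791 genes with a mean of at least 10 CPM. The added 5 CPM shrinks the differences of genes with low levels. Bid was under that mean, so 9 members were tested, of which 6 were lower and 0 higher in fibroblast-gated cells. Over all genes tested, 16.8% were lower and 25.2% higher. The median difference was -0.86 over the 9 members, which is the value of Bak1, and 0.16 over all genes. Bcl2a1b and Bcl2l11 reached the minimum through their macrophage levels, being under 10 CPM in fibroblast-gated cells, so they could be tested only with a difference in that direction and the count and median are given as a description. With 1 residual degree of freedom and 11.4 prior ones, the errors rest mainly on the spread of other genes, and p-values measure only the spread between these libraries, which may be technical.

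In that limma fit Bcl2a1b was lower in fibroblast-gated cells by -5.63 ± 0.28 (SE, adjusted p = 4.2e-09), and this fitted value is no bound on the fold. Bcl2l11 differed by -1.86 ± 0.31 (limma, adjusted p = 0.000343) and Mcl1 by -1.43 ± 0.19 (limma, adjusted p = 3.5e-05). Bcl2l1 differed by -1.14 ± 0.33 (limma, adjusted p = 0.0141), made of -1.89 in Heart1 and -0.38 in Heart2, and without the library block this call was lost (limma, adjusted p = 0.0760). Bak1 differed by -0.86 ± 0.25 (limma, adjusted p = 0.0157). Bax differed by -0.81 ± 0.21 (limma, adjusted p = 0.00662), with -1.15 in Heart1 and -0.47 in Heart2. For Bad (0.53 ± 0.24, limma adjusted p = 0.0964), Bcl2 (0.42 ± 0.24, limma adjusted p = 0.184) and Bcl2l2 (0.24 ± 0.34, limma adjusted p = 0.619) no difference passed the threshold of 0.05. With a mean of 1 CPM as the minimum, Bid was tested and was lower in fibroblast-gated cells by -1.60 (limma, adjusted p = 0.00124).

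**Figure D2:**
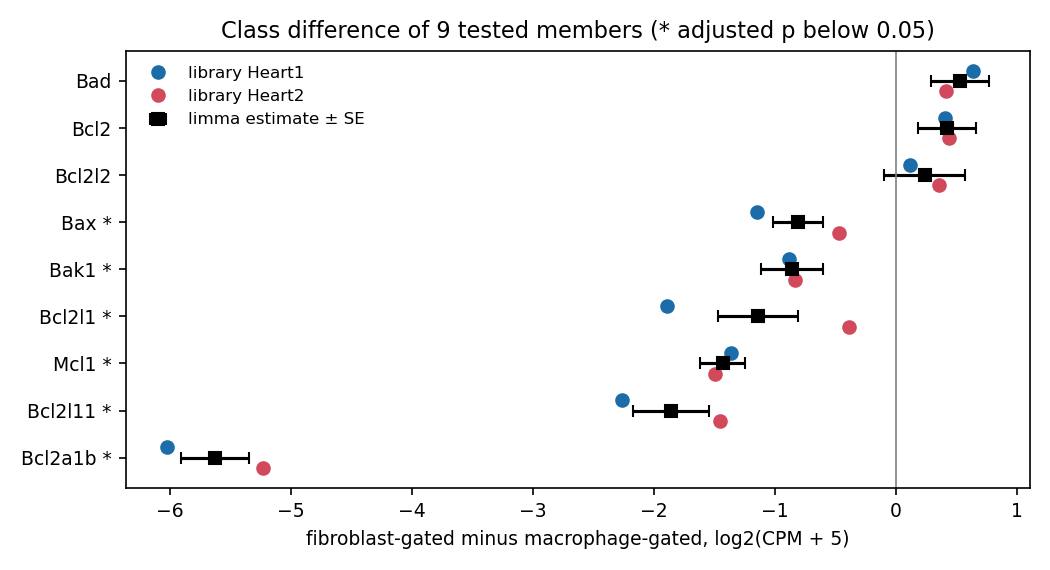
Difference of fibroblast-gated minus macrophage-gated sums in log2(CPM + 5) for the 9 members tested. Squares are the limma estimate with its SE and dots are the 2 libraries. The library values lie closest for Bcl2, Bak1 and Mcl1 and farthest apart for Bcl2l1 (-1.89 and -0.38).

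The rest of the apoptosis pathway was read from 53 further genes, of which 47 were in the table and 41 were tested. By the same limma test 7 were higher and 7 lower in fibroblast-gated cells (17.1% each), against 25.2% higher and 16.8% lower over all genes, so neither count stands out from the background. Of the called genes, Bcl2a1a, Bcl2a1d and Birc5 averaged under 10 CPM in fibroblast-gated cells, and Bok and Endog in macrophage-gated cells, so these 5 reached the minimum through the class where they are high. The median difference was 0.06 over the 41 genes, against 0.16 over all genes. The widest gap was in Bok, a BAX-like family member. It stood at 163 and 67.6 CPM in fibroblast-gated cells of Heart1 and Heart2, against 0 UMIs in macrophage-gated cells of both, so it was at least 18.9-fold and 46.2-fold higher with 3 UMIs as the floor. Casp8, the initiator caspase below death receptors, stood at 20.0 and 20.0 CPM, against 112 and 116 CPM in macrophage-gated cells (-2.26 ± 0.24, limma adjusted p = 5.4e-06). Its substrate gene Bid, above, likewise had its lower values in fibroblast-gated cells of both libraries.

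Of the 5 caspase inhibitors on the list, 3 were lower in fibroblast-gated cells and 0 higher, beside the 16.8% lower over all genes. Birc3 differed by -0.77, Xiap by -0.63 and Birc5 by -1.83 in the same limma fit. Birc5, known as survivin, is also a cell division gene. Cflar, whose product cFLIP blocks caspase-8, differed by -0.81. Of the 9 genes of mitochondrial release and the apoptosome 2 were higher (22.2%) and 0 lower, near the 25.2% higher over all genes. Endog, which encodes a nuclease released from mitochondria, differed by 1.16, and Diablo, whose product blocks XIAP and its relatives, by 0.82. Of 10 tested regulators of the family 3 were higher (30.0%) and 0 lower, again near that share, among them Ddit3, the stress factor CHOP, by 0.91 and Bag3, a co-chaperone, by 0.69. The limma adjusted p of the 8 genes whose differences are given here ran from 0.00264 for Birc5 to 0.0471 for Bag3. Under median ratio scaling 4 genes of the list were higher in place of 7, and without the library block 3 were. That scaling put the median of all genes at 0.07. Calls of the named pathway genes with small differences hung on the setting. The call was lost in 7 of 9 alternatives for Bag3 and in 3 of 9 each for Birc3 and Xiap, and it was lost in 1 for Diablo and in 0 of 9 for Bok, Bcl2a1a, Bcl2a1d, Casp8, Birc5, Cflar, Ddit3 and Endog.

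With all members counted, the balance between the groups also differed by class. Survival genes gave 47.2% of all member UMIs in fibroblast-gated cells of Heart1 (539 of survival and 602 of death genes, 44.3 to 50.2%) and 44.8% in Heart2 (1700 and 2096, 43.2 to 46.4%). In macrophage-gated cells they gave 62.4% (277 and 167, 57.7 to 66.9%) and 62.1% (1198 and 732, 59.9 to 64.2%). The libraries lay close together and the classes did not overlap. The level of the share rests on which genes are counted. Without Mcl1 it was 25.3% and 28.8% in fibroblast-gated cells, against 48.5% and 44.2% in macrophage-gated cells. With the death genes Bbc3, Pmaip1, Bmf and Bok added it was 33.6% and 37.5%, against 59.7% and 59.6%. Leaving out Bcl2a1b, macrophage-gated cells held 166 survival beside 167 death UMIs in Heart1 and 803 beside 732 in Heart2. Fibroblast-gated cells then held 539 beside 602 and 1698 beside 2096. Much of the class gap in the share thus rests on Bcl2a1b.

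The same held cell by cell at 5000 UMIs, again with Bcl2a1b counted. This depth was reached by 187 and 843 fibroblast-gated cells and 31 and 190 macrophage-gated cells. More survival than death UMIs were found in 34.2% and 29.1% of fibroblast-gated cells of Heart1 and Heart2, against 61.3% and 51.1% of macrophage-gated cells. More death UMIs were found in 40.6% and 42.0% of fibroblast-gated cells, against 35.5% and 26.8%. No UMI of any member was caught in 11.2% and 12.2% of fibroblast-gated cells, against 0 of 31 and 2.63% of macrophage-gated cells, where 0 of 31 allows a share of up to 9.68% by the same limit of 3 counts. A median cell held UMIs of 2 members in the fibroblast class and 3 in the macrophage class, so shares per cell are coarse.

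The survival genes themselves were mixed differently. The 3 genes whose proteins navitoclax binds, Bcl2, Bcl2l1 and Bcl2l2, gave 37.8% of survival UMIs in fibroblast-gated cells of Heart1 (33.7 to 42.1%) and 49.8% in Heart2 (47.4 to 52.2%). In macrophage-gated cells they gave 16.6% (12.4 to 21.5%) and 15.4% (13.4 to 17.6%). Mcl1 gave 62.2% and 50.1% of survival UMIs in fibroblast-gated cells, against 43.3% and 51.6% in macrophage-gated cells. Bcl2a1b gave 0 and 0.118%, against 40.1% and 33.0%. The classes thus separated in the share of bound genes and in that of Bcl2a1b. The Mcl1 share separated by class in Heart1 (57.9 to 66.3% in fibroblast-gated and 37.4 to 49.4% in macrophage-gated cells). In Heart2 the Mcl1 intervals of the classes overlapped (47.7 to 52.5% and 48.7 to 54.5%). Per cell at 5000 UMIs, a UMI of a bound gene was found in 32.1% and 38.3% of fibroblast-gated cells, against 41.9% and 35.3% of macrophage-gated cells, so the classes did not separate in how many cells had one. Bound genes with no Mcl1 or Bcl2a1b UMI were seen in 17.6% and 22.4% of fibroblast-gated cells, against 3.23% and 4.74% of macrophage-gated cells. These are RNA shares, and protein was not measured.

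**Figure D3:**
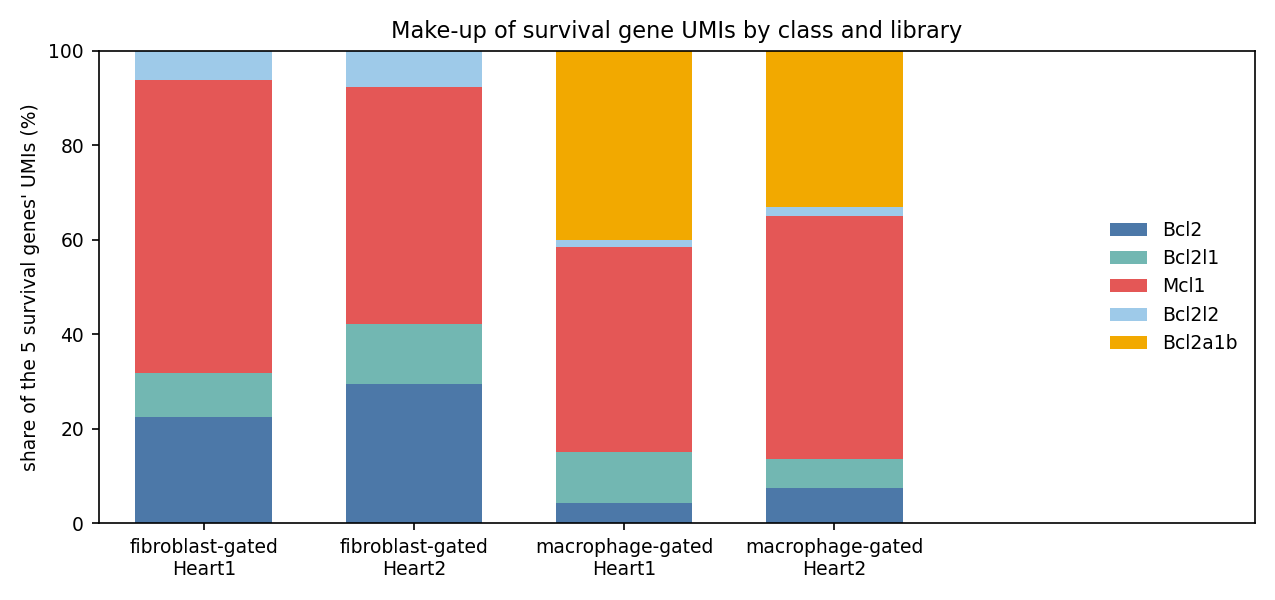
Share of each of the 5 survival genes in their summed UMIs, by class and library, in percent; each bar sums to 100%. Bcl2a1b makes up 40.1% and 33.0% of the macrophage-gated bars and 0 and 0.118% of the fibroblast-gated ones, and Bcl2 makes up 22.4% and 29.5% of the fibroblast-gated bars.

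Among the death genes, the Bax share overlapped between the classes, while the shares of Bad and Bcl2l11 separated by class in both libraries. Bax gave 60.5% and 61.4% of death UMIs in fibroblast-gated cells, against 67.1% and 61.2% in macrophage-gated cells. Bad gave 25.9% and 24.2%, against 7.78% and 12.6%, and Bcl2l11 gave 2.66% and 3.72%, against 10.2% and 9.70%. The BH3-only share thus held mostly Bad in fibroblast-gated cells, while in macrophage-gated cells Bad and Bcl2l11 had intervals that overlapped (4.21 to 12.9% and 6.04 to 15.8% in Heart1).

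Each class was next split by whether a cell had a Cdkn1a UMI, with every cell thinned to 5000 UMIs so that deeper cells did not show both genes more often. A cell without a UMI is one in which none was caught. Fibroblast-gated cells with Cdkn1a numbered 68 in Heart1 and 187 in Heart2, against 119 and 656 without, and macrophage-gated cells 14 and 59, against 17 and 131. Bax and Mcl1 stood higher with Cdkn1a in every pair, Bax by more in 3 of the 4. The stretch around the Bax start (chr7:45466849-45467148, minus strand) and that of the upstream Cdkn1a start (chr17:29090729-29091028, plus strand) are printed because both genes are textbook targets of p53. RefSeq sequences of GRCm38.p6 are given, with capitals at each p53 half-site.
Bax: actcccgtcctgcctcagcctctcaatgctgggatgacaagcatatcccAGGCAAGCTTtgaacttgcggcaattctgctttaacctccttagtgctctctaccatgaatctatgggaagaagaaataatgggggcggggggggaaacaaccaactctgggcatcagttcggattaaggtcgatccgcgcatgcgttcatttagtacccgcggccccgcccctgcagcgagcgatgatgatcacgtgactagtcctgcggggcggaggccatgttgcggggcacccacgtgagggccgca
Cdkn1a: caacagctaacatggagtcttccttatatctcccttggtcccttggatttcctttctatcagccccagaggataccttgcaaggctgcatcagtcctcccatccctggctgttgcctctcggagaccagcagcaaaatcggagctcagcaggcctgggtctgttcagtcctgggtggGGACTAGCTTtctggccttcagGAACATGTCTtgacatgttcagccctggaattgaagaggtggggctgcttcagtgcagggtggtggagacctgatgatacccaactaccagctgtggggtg
Bax held 1 such position and the upstream Cdkn1a start 2, each read on both strands because the half-site is its own reverse complement in pattern. The other Cdkn1a start (chr17:29093519-29093818, plus strand), not printed, held 0. Of 32851 promoters 8.36% held at least 1, and of the 14 promoters of the 10 members 1 did. A match is only a match of letters in this window.

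Bax stood at 176 CPM in fibroblast-gated cells of Heart1 with Cdkn1a, against 116 CPM in those without (ratio 1.52, 1.06 to 2.18). In fibroblast-gated cells of Heart2 it stood at 243 against 137 CPM (1.78, 1.51 to 2.09). In macrophage-gated cells it stood at 414 against 247 CPM in Heart1 (1.68, 0.92 to 3.09) and at 322 against 191 CPM in Heart2 (1.69, 1.28 to 2.22). Cells with Cdkn1a were thus higher in 4 of 4 pairs, and in 3 of them the interval lay above 1. Over all genes 5.43%, 5.7%, 2.73% and 5.43% had an interval above 1 in these 4 pairs, in the order given. Bax was higher in 4 of 4 pairs at each of the other depths, draws and definitions of status tried, with ratios of 1.43 to 2.53.

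With all sums of both classes in 1 limma fit (class by library as the block), Bax differed by 0.70 ± 0.16 in fibroblast-gated cells (SE, limma adjusted p = 1) and by 0.74 ± 0.16 in macrophage-gated cells (limma adjusted p = 0.530), with unadjusted limma p of 0.00763 and 0.00609. It did not pass, and neither did any of the 8734 genes tested (0% called in either direction). With no adjustment, 60 genes in fibroblast-gated and 751 in macrophage-gated cells had p under 0.05. The fit has 2 residual degrees of freedom and 2.71 prior ones. When each class was fitted on its own 4 sums, a choice made after seeing the data, Bax passed in fibroblast-gated cells (limma, 0.70 ± 0.16, adjusted p = 0.00845), beside 0.559% of genes called higher and 0.454% lower. In that fibroblast fit 106 degrees of freedom were borrowed from the spread of other genes, and only 1 came from the sums. The Bax difference and SE were nearly those of the joint fit, while the unadjusted limma p fell from 0.00763 to 4.4e-05. The pass thus leans on the borrowed degrees of freedom and not on a clearer difference. The adjusted p of Bax in macrophage-gated cells fitted alone was 0.553 by limma, where 0.445% of genes were called higher and 0.183% lower. The limma difference between the classes in the Bax effect was -0.04 ± 0.22 (adjusted p = 0.969). In the same separate fit the co-chaperone genes Bag1 (0.59, limma adjusted p = 0.0379) and Bag3 (0.92, limma adjusted p = 0.0361) also passed in fibroblast-gated cells. The Bag3 difference was 1.67 in Heart1 and 0.17 in Heart2, so Heart1 carried it.

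Mcl1 was also higher in 4 of 4 pairs, and in 3 of 4 in another draw, with an interval above 1 in 1 pair. No member passed the joint limma fit in either class. Of 38 member ratios that could be formed over the 4 pairs, 6 had an interval that left out 1 (15.8%), and 3 of these were Bax. Over all genes the share was 8.74% and 9.99% in fibroblast-gated cells of Heart1 and Heart2, and 4.36% and 7.73% in macrophage-gated cells. Mcl1 stood at 359 CPM with Cdkn1a against 250 CPM without in macrophage-gated cells of Heart2 (1.44, 1.11 to 1.84), and at 486 against 282 CPM in Heart1 (1.72, 0.99 to 3.03). In fibroblast-gated cells Mcl1 stood at 118 against 109 CPM and at 113 against 96.6 CPM, with ratios of 1.08 and 1.17 whose intervals held 1. Bcl2a1b ran the other way in macrophage-gated cells, at 171 against 376 CPM in Heart1 (0.46, 0.21 to 0.91) and at 166 against 229 CPM in Heart2 (0.73, 0.51 to 1.01). Bcl2l11 stood at 18.2 against 8.23 CPM in fibroblast-gated cells of Heart2 (2.21, 1.13 to 4.20), from 17 and 27 UMIs. Under the other depths, draws and definitions of status, no Bcl2l11 interval lay above 1 in any pair. At 3000 UMIs it was higher with Cdkn1a in only 1 of 4 pairs. Bcl2 showed no steady direction, with 44.1 against 58.8 CPM in the fibroblast class of Heart1 and 68.4 against 56.7 CPM in that of Heart2. All of these intervals cover counting error only.

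**Figure D4:**
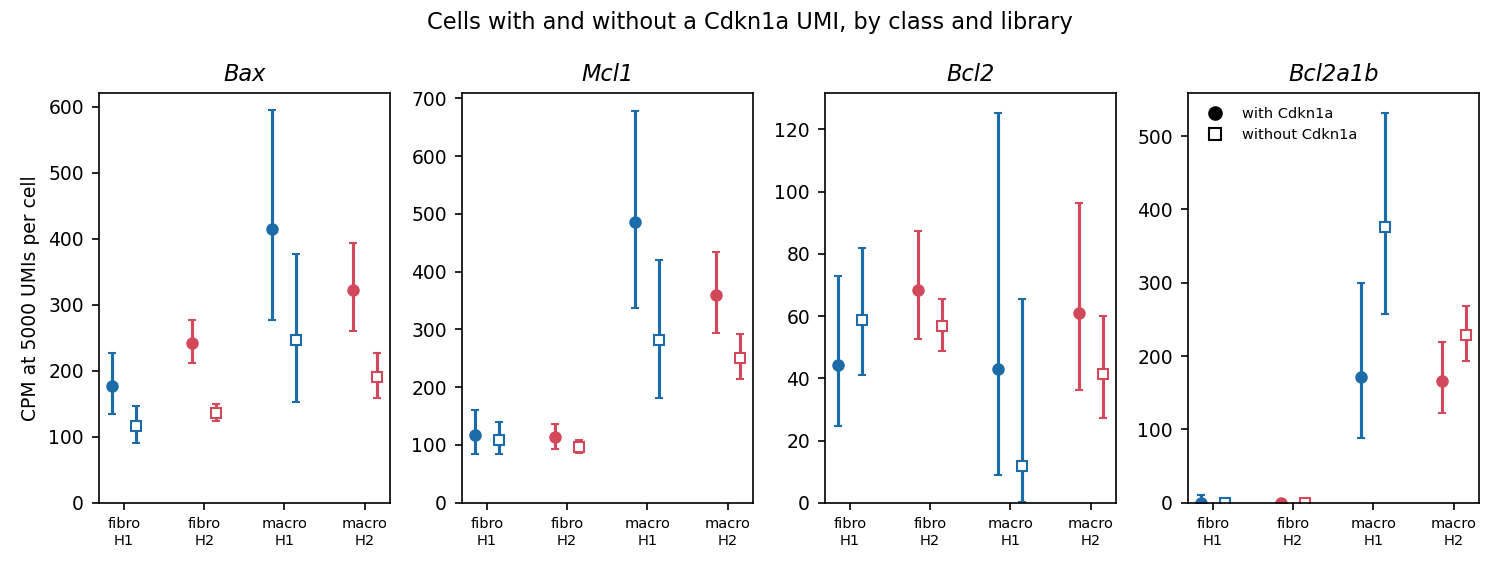
Level of Bax, Mcl1, Bcl2 and Bcl2a1b in CPM at 5000 UMIs per cell, for cells with a Cdkn1a UMI (filled circles) and without (open squares), in fibroblast-gated (fibro) and macrophage-gated (macro) cells of Heart1 (H1, blue) and Heart2 (H2, red). Bars are exact 95% Poisson intervals. Bax is higher with Cdkn1a in all 4 pairs, from 176 against 116 CPM to 414 against 247 CPM.

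The survival share of member UMIs was smaller with Cdkn1a in each pair at this depth. It was 41.9% with and 50.4% without in the fibroblast class of Heart1 and 38.1% with and 45.5% without in that of Heart2. In macrophage-gated cells it was 60.6% and 63.6% in Heart1 and 58.5% and 63.1% in Heart2. Of these the intervals separated in fibroblast-gated cells of Heart2 alone (34.0 to 42.4% and 42.9 to 48.2%). The order turned in fibroblast-gated cells of Heart1 at 3000 UMIs (47.4% with and 44.6% without), in macrophage-gated cells of Heart1 at 3000 UMIs (65.5% and 64.4%), and in macrophage-gated cells of Heart2 in another draw (64.1% and 63.4%) and unthinned (62.1% and 62.0%). The 8 dissociation genes moved with Cdkn1a too. They summed to 7776 CPM with against 4655 CPM without in fibroblast-gated cells of Heart1, 1995 against 1232 CPM in Heart2, 13129 against 2012 CPM in macrophage-gated cells of Heart1 and 1261 against 750 CPM in Heart2. The 5 monocyte markers in the table summed to 297 CPM with against 121 CPM without in fibroblast-gated cells of Heart1 and 81.3 against 41.8 CPM in Heart2. In macrophage-gated cells they summed to 143 against 424 CPM in Heart1 and 98.3 against 144 CPM in Heart2. The 6 cardiomyocyte markers summed to 20.6 against 70.6 CPM and 16.0 against 20.1 CPM in fibroblast-gated cells, and to 57.1 against 271 CPM and 108 against 108 CPM in macrophage-gated cells, in Heart1 and Heart2. The 3 neutrophil markers summed to at most 2.14 CPM in fibroblast-gated cells, and to 28.6 against 47.1 CPM and 122 against 218 CPM in macrophage-gated cells. The part of these lists in the Bax and Mcl1 values was not tested.

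Cdkn2a split the classes more thinly. At 5000 UMIs it was caught in 42 of 187 fibroblast-gated cells of Heart1 but in 3 of 843 of Heart2, so only the first was compared, and in 8 of 31 and 37 of 190 macrophage-gated cells. Too few macrophage-gated cells of Heart1 had it for a test with status taken at this depth. Of 29 member ratios that could be formed, 2 had an interval that left out 1 (6.90%). Over all genes 9.41% did in fibroblast-gated cells of Heart1, 4.37% in the macrophage class of Heart1 and 6.24% in that of Heart2, so the members' share is near the background.

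In fibroblast-gated cells of Heart1 no member stood out by Cdkn2a. Bax stood at 176 CPM with and 127 CPM without (1.39, 0.92 to 2.05), Bcl2 at 66.7 and 49.7 CPM (1.34, 0.67 to 2.55) and Mcl1 at 124 and 109 CPM (1.14, 0.70 to 1.79). In macrophage-gated cells of Heart2, Bcl2 stood at 86.5 CPM with Cdkn2a (16 UMIs) and 37.9 CPM without (29 UMIs), a ratio of 2.28 (1.16 to 4.34). In another draw that interval held 1 (1.70, 0.76 to 3.59). In Heart1 Bcl2 had 0 UMIs in 8 cells with and 4 UMIs in 23 cells without, so the direction was not seen there. Bax in macrophage-gated cells of Heart2 stood at 286 CPM with and 218 CPM without (1.31, 0.94 to 1.80), and its interval lay above 1 in each of the 4 other depths, draws and definitions of status, with ratios of 1.40 to 1.59. In Heart1 Bax stood at 400 and 296 CPM (1.35, 0.70 to 2.52), and its ratio was 0.79 unthinned and 0.81 with status from all UMIs. Bcl2a1b stood at 75.0 CPM with (3 UMIs) and 357 CPM without (41 UMIs) in Heart1, a ratio of 0.21 (0.04 to 0.66). That Heart1 ratio was 0.62 unthinned (0.41 to 0.92), and in another draw its interval held 1. In Heart2 Bcl2a1b stood at 162 and 221 CPM (0.73, 0.48 to 1.09).

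The share of bound genes among survival UMIs was larger in macrophage-gated cells with Cdkn2a in both libraries. It was 29.2% with (7 of 24 UMIs, 12.6 to 51.1%) and 11.5% without (11 of 96, 5.86 to 19.6%) in Heart1. In Heart2 it was 26.5% with (26 of 98, 18.1 to 36.4%) and 14.4% without (67 of 464, 11.4 to 18.0%), with intervals that did not overlap. Under the other depths, draws and definitions of status it was 21.7% to 40.9% with and 8.75% to 14.9% without in Heart1, and 21.4% to 24.1% with and at most 14.0% without in Heart2. In fibroblast-gated cells of Heart1 it was 42.2% with and 44.4% without. By Cdkn1a it was 19.3% with and 11.1% without for macrophages of Heart1 and 14.8% with and 17.4% without for macrophages of Heart2, so it had no common direction. Where all UMIs were used, limma could be fitted to the macrophage-gated sums, and 0 of 10 members passed by Cdkn2a, where 0.387% of genes were called higher and 0.528% lower, and 2 members had an unadjusted limma p under 0.05.

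**Figure D5:**
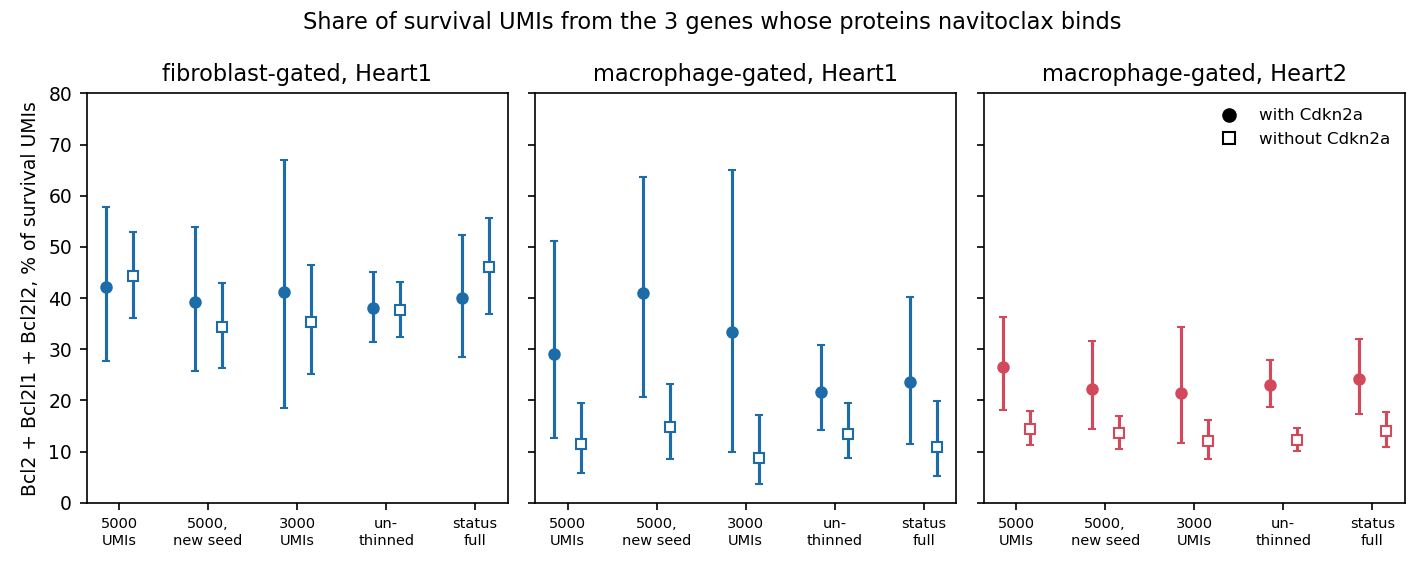
Share of survival gene UMIs from Bcl2, Bcl2l1 and Bcl2l2, in percent, for cells with a Cdkn2a UMI (filled circles) and without (open squares) in the 3 class and library pairs with enough cells. The 5 positions on the horizontal axis are 5000 UMIs per cell, a new random draw, 3000 UMIs, no thinning, and status taken from all UMIs; bars are exact 95% binomial intervals. In macrophage-gated cells the share with Cdkn2a lies above that without at every position, and in fibroblast-gated cells the intervals overlap.

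Within the classes, cells that shared a pair of subtype genes were set against the rest. Of 87 member ratios that could be formed over 9 such sets, 5 had an interval that left out 1 (5.75%), against 13.4% over all genes, so no more is read from the members' count. Bcl2a1b was low in macrophages with Folr2 and Cd163, genes of resident macrophages, in both libraries. It stood at 232 CPM in 14 such cells against 372 CPM in the other 23 of Heart1 (0.62, 0.40 to 0.96) and at 129 CPM in 94 cells against 257 CPM in the other 114 of Heart2 (0.50, 0.41 to 0.62). In fibroblast-gated cells of Heart2 with Pi16 and Dpp4, Bcl2 stood at 38.2 against 63.7 CPM (0.60, 0.42 to 0.84) and Bad at 78.6 against 59.4 CPM (1.32, 1.02 to 1.69). Those with Inmt and Osr1 had Bax at 122 against 160 CPM (0.77, 0.62 to 0.94). This direction was not seen in the 12 such cells of Heart1, with Bax at 161 against 141 CPM (1.14, 0.74 to 1.69).

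Over 13 sums of classes and sub-gates, which share cells, the genes whose log2(CPM + 5) ran most like that of Bcl2a1b among 8851 genes were Cd72, Lpxn and H2-DMa (Pearson r of 0.996, 0.995 and 0.994). For Bcl2l11 they were Tbk1, Stx7 and Atp2b1 (0.977, 0.966 and 0.963). These r are descriptions across sums that differ mainly by class.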

How the data were processed

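The submitters' processing notes name Cell Ranger 3.0.2 and mm10, with no tool for the normalization. The authors deposited natural log values, ln(1 + UMIs per 10000), for 15247 genes in 1426 cells. The values themselves show this unit, since their exponentials less 1 sum to 10000 in each cell. All 4459440 positive values were whole multiples of their cell's smallest one (tolerance 1e-06), so UMIs were recovered. A count model was not used because the deposited unit is a log. No columns of cells were left out.

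Sums per library and class held 347087 to 8242823 UMIs. They were tested with limma 3.58.1 (R 4.3.3; trend and empirical Bayes) on log2(CPM + 5). Levels have exact Poisson, shares exact Clopper-Pearson and ratios exact conditional binomial intervals, at 95%, for counting error only. Equal depth means a seeded draw of 5000 UMIs per cell. The library is a true block, since both classes of a prefix come from the same library. Scrublet marked 0.376% and 0.259% of cells, too few to be relied on, so doublets were kept. All 10 members are named, and up to 12 pathway genes past the threshold with the largest difference of the same direction in both libraries. The members, lists, gates and sub-gates were chosen with earlier results of these data known. Genes of the pathway list outside the table (6 of 53) were not analysed here. Gene starts and promoters are from RefSeq, overlaps from GENCODE for GRCm38. The limma fits were tested on simulated data. Alternatives were other pseudocounts (1 and 20 CPM), filters, scaling, gates, depths, draws and models.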

Additional observations from a re-analysis of the deposited data

How the results depend on the processing

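The direction of the class difference held under all 9 alternatives and in each library for the 9 members tested, and in the 4 fits that held Bid for that gene, and 0 members were higher throughout. Between 5 and 7 members were lower. Bcl2l1 was the one tested member whose call was lost, with no replicate block (limma, -1.14, adjusted p = 0.0760; range over its alternatives 0.00228 to 0.0760), and the cause was not tested. Each library alone gave the lowest and highest values of -1.89 and -0.38 for Bcl2l1, -1.15 and -0.47 for Bax, -2.26 and -1.45 for Bcl2l11 and -6.02 and -5.23 for Bcl2a1b. By Cdkn1a status, no member passed limma in either class under 8 alternatives of the joint fit, the one with no replicate block included, and 1 passed in fibroblast-gated cells (Bax) and 0 in macrophage-gated cells with the classes fitted separately. The sign of the fitted difference turned in at least 1 alternative for 4 of 9 members in fibroblast-gated cells (Bcl2, Bcl2l1, Bcl2l2 and Bak1). In macrophage-gated cells it turned for 4 of 10 (Bcl2l1, Bak1, Bcl2l11 and Bid). For Bax, Mcl1 or Bad the fitted sign never turned in either class. By library, however, the Bad difference in fibroblast-gated cells was -0.51 in Heart1 and 0.04 in Heart2. The sign for Bcl2 in fibroblast-gated cells turned to 0.10 at 3000 UMIs and 0.11 with status from all UMIs, and that for Bcl2l11 in macrophage-gated cells to 0.75 unthinned, 0.47 with status from all UMIs and 0.31 in another draw. The number of members whose Cdkn2a ratio interval left out 1 was 1 in fibroblast-gated cells of Heart1 in another draw, 2 in macrophage-gated cells of Heart1 at 3000 UMIs and 2 unthinned, and in those of Heart2 2 at 3000 UMIs, 3 unthinned and 3 with status from all UMIs. The survival share moved with the genes counted, to 25.3% and 28.8% in fibroblast-gated cells and 48.5% and 44.2% in macrophage-gated cells without Mcl1, and to 33.6% and 37.5% in fibroblast-gated cells and 59.6% in macrophage-gated cells of Heart2 with Bbc3, Pmaip1, Bmf and Bok. Depth limits what low members can show, since Bid had 4 UMIs in fibroblast-gated cells of Heart1 and macrophage-gated cells of Heart1 numbered 37.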
